A study of Mus musculus with 3 samples.

Results

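Marginal reticular cells (MRCs) were described here as the sorted lymph node stromal barcodes that carried at least 1 UMI (unique molecular identifier, 1 counted RNA molecule) of Madcam1 and 0 UMIs of Cr2. The barcodes came from all 3 single-cell libraries and had at least 200 detected genes, at most 10% of UMIs from mitochondrial genes and 0 UMIs of 13 contaminant genes that mark endothelium, lymphocytes, red cells, epithelium or glia. This gate, called the Madcam1 gate below, held 83 of the 2243 retained barcodes, out of 5486 in all. It was set beside the Cr2 gate (at least 1 Cr2 UMI, as in follicular dendritic cells, FDCs; 230 barcodes), the Tnfsf11 gate (at least 1 Tnfsf11 UMI without Madcam1 or Cr2; 593 barcodes) and the remaining stroma (1337 barcodes). The members were chosen by their measured Madcam1, Cr2 and contaminant gene counts, so these levels are given below as descriptions, with no test.

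All cells were sorted as PDPN+ CD31- CD45- and TdTomato+ from lymph nodes of C57BL/6 mice in which a Cxcl13-Cre/tdTomato transgene drives the reporter in CXCL13-expressing stroma, so every gate shares this selection. The mice received fluorescent antigen immune complexes (ICs). In the 2-IC group, the first IC was given 7 days and the second 24 hours before analysis, and in the 1-IC group a single IC was given 24 hours before analysis. The 2-IC group has 2 libraries, with 1526 and 391 retained barcodes, and the 1-IC group has 1 library, with 326. The titles of the 2-IC libraries name the same condition but end in different tags, Biotin24h for replicate 1 and Biotin7d for replicate 2. Whether these tags mark a difference in treatment is not stated in the titles, and both were taken as replicates. The methods describe 3 independent experiments in which lymph nodes of several mice were pooled, and the labels do not tie an experiment to a library. Values of the 3 libraries are given throughout in the order 2-IC replicate 1, 2-IC replicate 2 and 1-IC replicate 1.

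MRCs line the outer edge of the lymph node, beneath the subcapsular sinus, and are known for the mucosal addressin MAdCAM-1, the TNF family cytokine RANKL (encoded by Tnfsf11) and the B cell chemoattractant CXCL13. Lymphotoxin-β receptor and NF-κB signalling maintains stroma of this kind, and RANKL from MRCs acts on sinus-lining macrophages and lymphatic endothelium. MRCs have also been described as a source of new FDCs, the follicular stroma that holds immune complexes through complement receptor CR2 and Fc receptors.

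The counts were made from the 3′ ends of transcripts, and the marker genes lay, by the annotation on build GRCm38, at chr10:79664559-79668537 (Madcam1), chr14:78277445-78308043 (Tnfsf11), chr15:54838901-54952892 (Enpp2), chr5:43818885-43843986 (Bst1), chr19:34473778-34475164 (Ch25h) and chr1:195136811-195176716 (Cr2). The DNA in front of the genes that define the gates and of the marker Ch25h is shown as 250 bases each. They are printed 5′ to 3′ on the gene's own strand and lie before the transcription start of RefSeq on GRCm38.p6. That start can differ from the gene coordinates above, which are from another annotation. The Ch25h window overlaps the coordinates given for Ch25h, and the Cr2 window leaves a small gap to those of Cr2. Matches to GGGNNNNNCC, the letters of a general NF-κB motif, on either strand are in capitals. The window of Madcam1 is at chr10:79664309-79664558, plus strand.
Madcam1: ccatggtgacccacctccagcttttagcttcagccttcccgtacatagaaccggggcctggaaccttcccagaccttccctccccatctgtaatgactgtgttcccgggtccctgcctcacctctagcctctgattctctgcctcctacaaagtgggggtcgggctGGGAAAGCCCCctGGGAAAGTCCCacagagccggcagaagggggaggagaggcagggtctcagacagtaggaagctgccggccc
The window of Tnfsf11 is at chr14:78308044-78308293, minus strand.
Tnfsf11: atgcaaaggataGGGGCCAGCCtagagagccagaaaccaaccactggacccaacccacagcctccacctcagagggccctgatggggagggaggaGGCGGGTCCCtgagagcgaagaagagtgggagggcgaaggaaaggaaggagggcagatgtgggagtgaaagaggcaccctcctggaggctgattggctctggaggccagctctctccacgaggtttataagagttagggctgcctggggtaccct
The window of Ch25h is at chr19:34475149-34475398, minus strand.
Ch25h: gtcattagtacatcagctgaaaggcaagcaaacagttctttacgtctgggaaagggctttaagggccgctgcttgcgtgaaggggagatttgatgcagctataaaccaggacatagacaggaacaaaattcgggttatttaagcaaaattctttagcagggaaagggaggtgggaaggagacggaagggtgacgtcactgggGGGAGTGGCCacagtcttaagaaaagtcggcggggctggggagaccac
The window of Cr2 is at chr1:195176720-195176969, minus strand.
Cr2: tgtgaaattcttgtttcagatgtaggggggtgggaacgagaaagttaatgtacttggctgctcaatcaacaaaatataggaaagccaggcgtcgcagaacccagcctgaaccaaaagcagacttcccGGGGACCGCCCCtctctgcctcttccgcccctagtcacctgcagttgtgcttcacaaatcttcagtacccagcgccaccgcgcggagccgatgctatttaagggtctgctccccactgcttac
The Madcam1 window held 5 overlapping matches in 2 blocks, from 84 to 74 and from 71 to 61 bases before the start. The Tnfsf11 window held 2 matches, the Ch25h window 1 and the Cr2 window 4 that overlap each other. Of all 32851 promoter windows, 45.8% held at least 1 match and 25.5% at least 2, so that a match is a description of these letters and not a bound site. Enpp2 and Bst1 are not shown.

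The 2 libraries of the 2-IC group shared 76 cell barcodes, and in 75 of these the shallower copy held under 3% of the UMIs of the deeper copy. Of the shared barcodes, 45 were retained in either library and 1 lay in the Madcam1 gate. 2-IC replicate 1 and 1-IC replicate 1 shared 2 barcodes, 1 of them in the gate, and the other pair of libraries shared 0. Without shared barcodes 419, 336 and 728 genes passed in the comparisons below with the Cr2 gate, the Tnfsf11 gate and the remaining stroma, where 402, 400 and 790 passed with them.

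Library totals were 20607903, 12788101 and 3766526 UMIs, and the members of the Madcam1 gate summed to 315165, 254152 and 107914 UMIs. A member held a median of 5199, 16674 and 6289 UMIs. The deepest member gave 5.76%, 14% and 10.03% of its library's sum, so that in 2-IC replicate 2, with 16 members, single cells weigh on a value. The nuclear RNA Malat1 took a median of 4.74%, 5.40% and 13.1% of a member's UMIs, highest in 1-IC replicate 1, and its part in the results below was not tested.

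The Madcam1 gate held 50, 16 and 17 barcodes, or 3.28% (95% exact binomial interval 2.44 to 4.30), 4.09% (2.36 to 6.56) and 5.21% (3.07 to 8.22) of the retained barcodes. These intervals overlap and cover counting error only. As a background, 920 B cell barcodes (3 or more UMIs of Cd79a and Cd79b together, 0 of Pdpn and Pdgfrb), which should lack Madcam1, had a Madcam1 UMI in 3.13%, 2.80% and 2.30% of cases, at a median of 4137.5 UMIs against 6589 in the members. The background lay within the interval of the gate in both 2-IC libraries. These shares are not the same measure, since the B cell barcodes had no limit on Cr2, which 28.3%, 64.5% and 29.9% of them carried. Depth differed as well, with medians of 4111, 6147 and 3187 UMIs in the B cell barcodes against 4700.5, 14732 and 5979 in the retained barcodes. With at least 2 Madcam1 UMIs the gate held 1.57%, 1.79% and 3.99% of the retained barcodes, and 0.626%, 2.80% and 0.575% of the B cell barcodes reached that level. When each barcode was thinned to 2000 UMIs and gated again, the shares were 2.30% (1.55 to 3.26), 0.867% (0.179 to 2.51, from 3 members) and 5.54% (3.13 to 8.96). The order of the 2-IC libraries turned, but their intervals overlapped before and after thinning.

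**Figure D1:**
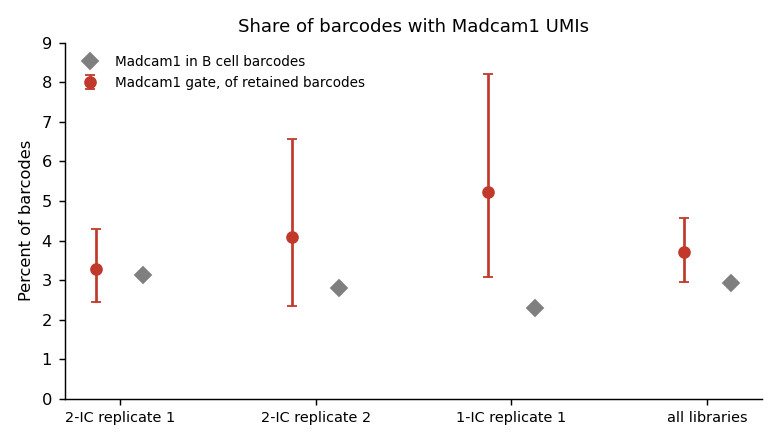
Percent of barcodes with Madcam1 per library (y axis, percent; x axis, library). Red points are the Madcam1 gate among retained barcodes with 95% exact binomial intervals, and grey diamonds are B cell barcodes with any Madcam1 UMI; the diamond lies inside the interval in both 2-IC libraries and below it in the 1-IC library.

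Among the 83 members, 39 had exactly 1 Madcam1 UMI, 44 had 2 or more, and the highest count was 11. The members carried the other MRC markers in differing numbers. Enpp2, which encodes the lysophosphatidic acid-producing enzyme autotaxin, was detected in 80 members, Bst1 (CD157) in 66, Tnfsf11 in 52 and Ch25h, whose product makes 25-hydroxycholesterol, in 35. Of these 4 markers, 26 members had all, 29 had 3, 17 had 2, 8 had 1 and 3 had 0. Of the FDC markers Fcer2a, Fcgr2b, Sox9 and Coch, 49 members had 0, 23 had 1, 9 had 2 and 2 had 3. Of the 1930 barcodes with neither Madcam1 nor Cr2, 94.4%, 46.4%, 30.7% and 10.3% carried Enpp2, Bst1, Tnfsf11 and Ch25h, with 5524 UMIs as their median depth. In comparison they were 94.9%, 66.7%, 43.6% and 25.6% in members with 1 Madcam1 UMI and 97.7%, 90.9%, 79.5% and 56.8% in members with 2 or more, so that the former lay between the latter and the barcodes outside. Of the B cell barcodes, 33.5% carried Enpp2, 11.5% Bst1 and 4.57% Tnfsf11. Thinned to 2000 UMIs and gated again, 87.5% of the members and 91.5% of the remaining stroma carried Enpp2, 68.8% and 25.1% Bst1, and 18.8% and 4.55% Ch25h. Enpp2 thus did not set the members apart by detection, and these shares are a description with no test. Of the FDC markers, Fcer2a, Fcgr2b and Coch were in 2, 0 and 2 of the 39 members with 1 Madcam1 UMI. They were in 3, 3 and 10 of the 44 with 2 or more, and in 29, 42 and 61 of the 1930 barcodes outside. The marker counts above also include Sox9, which was not among the FDC genes called higher than in the remaining stroma. Its share outside the gate is not given here. Cr2 at 0 did not remove every barcode with FDC genes, inside the gate or outside it.

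**Figure D2:**
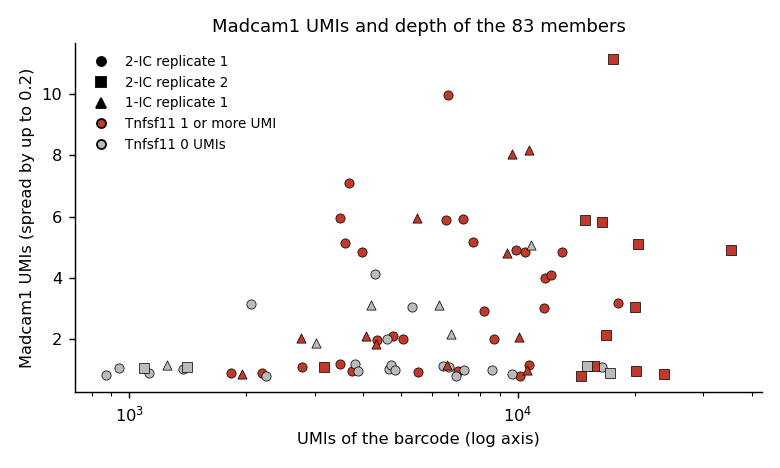
Each point is 1 of the 83 members of the Madcam1 gate, with its UMIs on the x axis (log axis) and its Madcam1 UMIs on the y axis (spread by up to 0.2); the shape gives the library and red marks the 52 members with Tnfsf11. The 39 members with 1 Madcam1 UMI include most of the shallow ones, and the member with 11 Madcam1 UMIs is from 2-IC replicate 2.

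Members just inside the threshold, with 1 Madcam1 UMI, had a median of 4835 UMIs against 7457.5 in those with 2 or more. Their Tnfsf11 level was 217, 107 and 491 CPM (UMIs of the gene scaled to 1000000 summed UMIs) against 632, 627 and 399.9 CPM. Just outside the threshold, in the 1930 barcodes without Madcam1 or Cr2, it was 124, 107 and 124 CPM. Ncam1, a neural cell adhesion molecule, was at 21.7, 26.7 and 49.1 CPM in members with 1 Madcam1 UMI, at 282, 239.7 and 206 CPM in those with 2 or more and at 36.1, 39.2 and 20.7 CPM outside. Members with a single Madcam1 UMI were close to the barcodes outside the gate in Ncam1, while the others were higher in all 3 libraries. On the Cr2 side of the threshold, the 13 barcodes with Madcam1 and exactly 1 Cr2 UMI had Tnfsf11 at 71.5, 43.9 and 320.4 CPM and Fcer2a at 71.5, 0 and 128 CPM.

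Several genes were detected more often in the members with more Madcam1 UMIs, which were also deeper. Ncam1 was found in 34 of 44 members with 2 or more Madcam1 UMIs and in 6 of 39 with 1. Tcerg1l was found in 18 and 2, Meox1, a homeobox transcription factor, in 24 and 9, and Ch25h in 25 and 10. Tnfsf11 itself was detected in 35 and 17. These counts describe how the members vary and were not tested.

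Madcam1, the gene that set the gate, was at 406, 185 and 500.4 CPM in the Madcam1 gate and at 292, 187 and 523 CPM in the Cr2 gate, where 104 of 230 barcodes carried it. Its level was thus no lower in the Cr2 gate in 2 of the libraries, and the gates differ by the rule in Cr2. The other markers were compared by summing UMIs per library and gate. Tnfsf11 was at 451, 397 and 417 CPM in the Madcam1 gate against 63.9, 48.0 and 65.4 CPM in the Cr2 gate, a 6.88-fold difference (log2 fold change 2.78 ± 0.20 SE, adjusted p = 2.30e-08). The groups did not overlap, and each library of the Madcam1 gate was close to the others.

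Enpp2 stood at 5597, 5170.1 and 4198 CPM in the Madcam1 gate and at 2409.6, 2003 and 1728 CPM in the Cr2 gate, 2.30-fold apart (log2 fold change 1.20 ± 0.14 SE, adjusted p = 3.01e-06). The lowest library of the Madcam1 gate was above the highest of the Cr2 gate. Against the Tnfsf11 gate, at 4305, 3842 and 4181 CPM, the change in Enpp2 missed the threshold (log2 fold change 0.24 ± 0.13 SE, adjusted p = 0.396), and the groups overlapped. Enpp2 was higher than in the remaining stroma (log2 fold change 1.21 ± 0.13 SE, adjusted p = 1.94e-06).

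Bst1 was at 549, 578 and 584 CPM in the Madcam1 gate, 487, 369 and 492 CPM in the Cr2 gate and 234, 146 and 271 CPM in the Tnfsf11 gate. It was higher than in the Tnfsf11 gate (log2 fold change 1.43 ± 0.18 SE, adjusted p = 2.32e-05) and did not pass the test against the Cr2 gate (log2 fold change 0.28 ± 0.18 SE, adjusted p = 0.52). Ch25h, at 121, 102 and 83.4 CPM, was above all 3 other gates in every library. Its fold difference was 4.80 from the Cr2 gate (log2 fold change 2.26 ± 0.31 SE, adjusted p = 4.70e-05) and 2.54 from the Tnfsf11 gate (log2 fold change 1.34 ± 0.24 SE, adjusted p = 0.00122). Ncam1 was at 168, 146 and 176 CPM, higher than in the Tnfsf11 gate (log2 fold change 1.84 ± 0.23 SE, adjusted p = 2.47e-05), and it overlapped with the Cr2 gate at 88.7, 168 and 65.4 CPM (log2 fold change 0.50 ± 0.23 SE, adjusted p = 0.309).

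**Figure D3:**
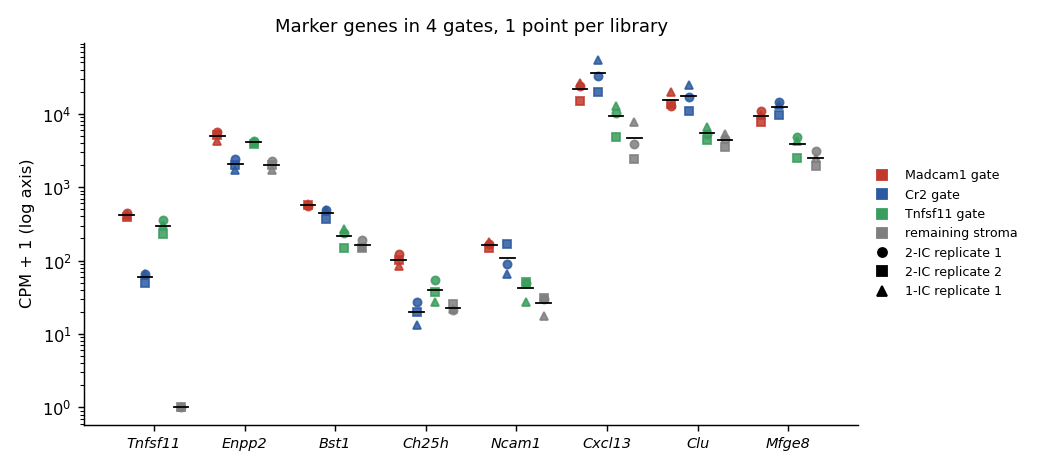
Levels of 8 genes in the 4 gates (CPM + 1 on a log axis), with 1 point per library and a bar at the mean of 3 libraries. Tnfsf11 of the Madcam1 gate lies between 397 and 451 CPM and that of the Cr2 gate between 48.0 and 65.4 CPM, while the remaining stroma is at 0 by the rule.

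Compared with the Cr2 gate, the Madcam1 gate was higher in RANKL, autotaxin, a Wnt inhibitor, a BMP antagonist and the receptor gene Pdgfrb, and lower in the Fc receptors and other genes of FDCs. Of 8669 genes tested, 402 (4.64%) passed the threshold, 145 of them higher (1.67%) and 257 lower (2.96%). Without the library as a term in the fit 92 genes passed, and the genes named below that did not include Abcc9, Ccl2, Col6a3, Cxcl13, Cxcl9, H2-Aa, Il33, Ltbp1, Mfge8, Postn, Pthlh, Relb, Rgs5, S1pr3 and Sox9. Without 2-IC replicate 1 or 2-IC replicate 2 the counts were 197 and 234, and without the contaminant filter, where 1622 passed, Ccl2, Col6a3, Cxcl13, Grem1, Pdlim3, Relb, S1pr3 and Sox9 did not. Among genes with a mean of 50 CPM or more in the higher gate and 1 direction in every library, Wif1, a secreted Wnt inhibitor, had the largest rise, from 2.37, 14.4 and 34.2 CPM in the Cr2 gate to 117, 138 and 102 CPM (log2 fold change 3.19 ± 0.50 SE, adjusted p = 2.17e-04). All 3 libraries of the Madcam1 gate were above all 3 of the Cr2 gate. Wif1 was followed by Tnfsf11, and Adra2a (an adrenergic receptor), Clec14a (a C-type lectin domain protein), Grem1 (a secreted BMP antagonist) and Ch25h rose by 2.42, 2.28, 2.27 and 2.26 on the log2 scale. Meox1 rose from 10.6, 31.2 and 15.6 CPM to 102, 82.6 and 64.9 CPM (log2 fold change 2.23 ± 0.37 SE, adjusted p = 3.63e-04), with an adjusted p of 0.123 without 2-IC replicate 1. The chemokine gene Ccl2 also passed (log2 fold change 2.50), but 210 of the 276 Ccl2 UMIs of the gate lay in 1 member of 2-IC replicate 2. Its adjusted p was 0.0773 without 2-IC replicate 2, and with at least 2 Madcam1 UMIs the log2 fold change was -0.19.

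Of the largest falls under the same limits, 3 were genes with 0 UMIs in the 83 members, a sum of 677231 UMIs in which 3 counts, the floor used over the gate, are 4.43 CPM. Nphs1, which encodes nephrin, was at 66.2, 93.5 and 230.4 CPM in the Cr2 gate and at least 24.1-fold lower in the members. 2200002D01Rik and Slc4a8, a bicarbonate transporter gene, were at least 17.8-fold and 13.8-fold lower. Slc1a2, a glutamate transporter gene, fell from 269.7, 245 and 249 CPM to 12.7, 0 and 9.27 CPM (log2 fold change -5.17 ± 0.42 SE, adjusted p = 3.62e-08). Art2a-ps and Tesc fell, with log2 fold changes of -5.79 and -5.08, and Art2a-ps is a pseudogene whose reads may be split with those of related copies. Each of these genes was at 18.5 CPM or less in every library of the Madcam1 gate, the highest being Art2a-ps in the 1-IC library, and no library overlapped with the Cr2 gate.

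Of 16 listed FDC genes, 15 were tested against the Cr2 gate, 10 were lower and 1 was higher, with a median log2 fold change of -1.47 against -0.01 over all genes. The shares over all genes tested were 2.96% lower and 1.67% higher. Without the library term 6 of the 10 lower calls stayed. Fcgr2b, the inhibitory Fcγ receptor gene, was at 6.35, 0 and 27.8 CPM in the Madcam1 gate and 173, 247 and 233 CPM in the Cr2 gate (log2 fold change -4.85 ± 0.55 SE, adjusted p = 3.29e-06). Fcer2a, the gene of the low-affinity IgE receptor CD23, was at 22.2, 7.87 and 0 CPM against 182, 185 and 227 CPM (log2 fold change -3.94 ± 0.40 SE, adjusted p = 6.51e-07). Neither gene overlapped between the gates. Thinned to 2000 UMIs and gated again, which leaves the members of 2-IC replicate 2 out of the fit, Tnfsf11, Enpp2, Pdgfrb, Il33, Col6a3, Cxcl9, Pthlh, Prnp and Fabp5 still passed against the Cr2 gate. The calls of Fcgr2b, Fcer2a, Cd200, Coch, Cilp, Sox9, Mfge8, Slc1a2, Tesc, Art2a-ps, Nphs1, 2200002D01Rik, Slc4a8, Grem1, Clec14a, Kcnj8, Abcc9, Cxcl13, S1pr3 and Traf1 did not stay, and Wif1, Ch25h, Meox1 and Adra2a were too low to be tested. Cd200, Coch, Pthlh and Cilp fell, with log2 fold changes of -2.99, -2.03, -1.51 and -1.47, and the prion protein gene Prnp fell 3.91-fold. Sox9 also fell, with an adjusted p of 0.141 without 2-IC replicate 1. By contrast, Clu, which encodes clusterin, was at 12923, 13739.8 and 19784 CPM against 17043, 11052 and 24339.6 CPM and did not pass the test (log2 fold change -0.23 ± 0.14 SE, adjusted p = 0.507). Mfge8, whose product bridges dying cells to phagocytes, differed by -0.48 (adjusted p = 0.0312), with adjusted p of 0.41 without 2-IC replicate 1 and 0.109 without 1-IC replicate 1. Without the contaminant filter the log2 fold changes of Coch and Mfge8 turned to 0.40 and 0.042, and thinned to 2000 UMIs that of Coch turned to 0.70. Leaving out this filter also lets B cell barcodes into the gates. Of the B cell barcodes described above, 32.8% carried Cr2, so the Cr2 gate of that setting does not hold stroma alone.

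**Figure D4:**
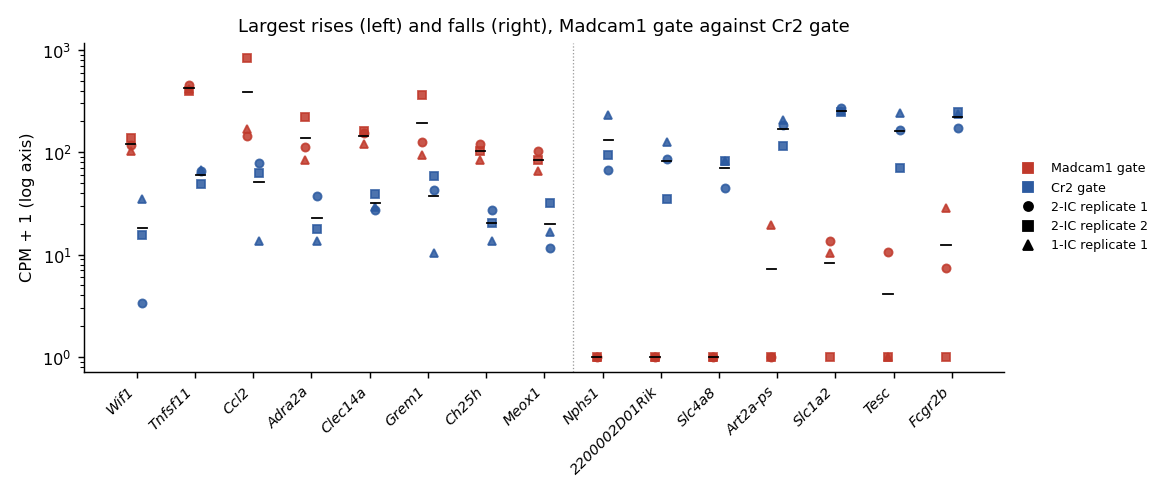
The 8 largest rises (left) and 7 of the 8 largest falls (right), among genes with a mean of 50 CPM or more in the higher gate, of the Madcam1 gate (red) against the Cr2 gate (blue), as CPM + 1 on a log axis with 1 point per library and a bar at the mean of 3 libraries. Nphs1, 2200002D01Rik and Slc4a8 are at 0 CPM in all libraries of the Madcam1 gate.

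In the stromal lists, matrix genes had 7 higher and 3 lower of 33 tested against the Cr2 gate (median 0.39). Without 2-IC replicate 1, 3 of the 7 higher calls stayed, without 2-IC replicate 2 there were 4 left and 1 of the lower ones, and without the library term 0. Col6a3, a collagen VI chain, was at 219, 271 and 92.7 CPM against 78.1, 64.8 and 9.34 CPM (log2 fold change 1.78 ± 0.28 SE, adjusted p = 2.22e-04), while periostin (Postn) fell by 1.38 on the log2 scale but was at 0.25 without the contaminant filter. Pdgfrb, the receptor for PDGF-BB, was at 222, 220.3 and 158 CPM against 49.7, 72.0 and 9.34 CPM (log2 fold change 2.05 ± 0.25 SE, adjusted p = 7.12e-06), without overlap. It was at 131, 196 and 100 CPM in the barcodes with neither Madcam1 nor Cr2. Of the pericyte genes, the potassium channel subunits Kcnj8 and Abcc9 were higher (log2 fold change 1.64 and 1.20) and Rgs5 lower. Abcc9 had a mean of 594 CPM in the Madcam1 gate and 567 CPM in the Tnfsf11 gate. Of the 5 tested pericyte and nerve genes, 0 passed against the Tnfsf11 gate or the remaining stroma. For Rgs5 the adjusted p against the Cr2 gate was 0.112 without 2-IC replicate 1, 0.0511 without 2-IC replicate 2 and 0.214 without 1-IC replicate 1. Of 20 tested chemokine and cytokine genes, 6 were higher and 2 lower, and without 2-IC replicate 2, 3 of the higher calls stayed. Without the library term none of these 8 calls stayed. The alarmin gene Il33 was at 457, 704 and 306 CPM against 202, 295 and 112 CPM (log2 fold change 1.17 ± 0.18 SE, adjusted p = 1.19e-04). The interferon-induced chemokine gene Cxcl9 was at 31.7, 15.7 and 92.7 CPM against 106, 156 and 367 CPM (log2 fold change -2.36 ± 0.35 SE, adjusted p = 1.19e-04). Cxcl13 was at 23629, 15066 and 25817 CPM against 33037, 19945 and 53829 CPM and was lower (log2 fold change -0.72 ± 0.16 SE, adjusted p = 0.00788), with an adjusted p of 0.159 without 2-IC replicate 1. Its levels overlapped across libraries, although it was lower in the Madcam1 gate within each of them. The lipid receptor genes S1pr3 and Lpar3 fell, with log2 fold changes of -1.06 and -3.55. Of 21 tested genes of the TNF family and NF-κB, Tnfsf11 was higher and Traf1 and Relb were lower, where 1.67% and 2.96% of all genes tested were, so that nothing is read from the count. For Relb the adjusted p was 0.128 without 2-IC replicate 1, 0.162 without 2-IC replicate 2 and 0.0705 without 1-IC replicate 1.

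Markers of other cells were summed over their whole lists. The 17 B cell genes summed to 1919.6, 893 and 1047 CPM in the Madcam1 gate and 2064, 1151 and 1220.4 CPM in the Cr2 gate, with Cd74 as the most abundant and Ms4a1 at 2 UMIs in the members. The 15 macrophage and dendritic cell genes summed to 777, 609.9 and 927 CPM, mostly Cst3, with C1qa at 0. The 20 endothelial genes summed to 121, 7.87 and 37.1 CPM, with 12 of them at 0, 3 of these by the rule. The 121 CPM of 2-IC replicate 1 included 17 UMIs of Glycam1 in a single member, Kdr was at 0 and Pecam1 had 1 UMI. The 12 T cell genes summed to 0, 7.87 and 9.27 CPM. Cd79a, Cd79b, Ptprc, Cd3d, Trac, Egfl7, Cldn5, Ly6c1 and Lyve1 were at 0 by the rule and say nothing further. Of the B cell genes that the rule did not use, Cd74 had 393, Ebf1 328 and Igkc 142 UMIs in the members. Of 6 tested B cell genes, H2-Aa was lower than in the Cr2 gate, where 2.96% of all genes tested were, and H2-Aa, Igkc, Ighm and Ebf1 were lower than in the remaining stroma, where 4.88% were. Thinned to 2000 UMIs, the calls of Igkc and Ebf1 were lost. The log2 fold change of H2-Aa then turned to 0.53 against the Cr2 gate and 0.21 against the remaining stroma. Without the contaminant filter the call of Igkc was lost and Ighm turned to 0.46. The adjusted p of H2-Aa against the Cr2 gate was 0.443 without 2-IC replicate 1 and 0.176 without 2-IC replicate 2, and against the remaining stroma that of Ighm was 0.355 without 2-IC replicate 1, 0.0753 without 2-IC replicate 2 and 0.095 without 1-IC replicate 1 and that of Ebf1 0.154 without 2-IC replicate 1 and 0.0534 without 1-IC replicate 1. Of 6 tested macrophage and dendritic cell genes, Ctss was higher and Cst3 lower than in the remaining stroma, against 4.23% and 4.88% of all genes tested. Both calls were lost with DESeq2 and without any 1 library, with adjusted p of 0.0554 without 2-IC replicate 1, 0.397 without 2-IC replicate 2 and 0.131 without 1-IC replicate 1 for Ctss and 0.114 without 2-IC replicate 1, 0.0534 without 2-IC replicate 2 and 0.129 without 1-IC replicate 1 for Cst3. The 1 tested gene of the endothelial list, Flt4, had 9 UMIs in 6 members and was higher than in the Tnfsf11 gate and the remaining stroma. In 1-IC replicate 1 it lay in a single member, and without that library its adjusted p against the Tnfsf11 gate was 0.0959, and without 2-IC replicate 1 it did not pass the filter on low counts. The part of such cells in the results was not tested.

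Compared with the Tnfsf11 gate, which holds stroma with RANKL but no Madcam1 or Cr2 UMI, the Madcam1 gate was higher in several FDC genes, Ncam1, Bst1, Ch25h and Cxcl13, and lower in Cxcl12, Cxcl9 and decorin. Of 8668 genes tested, 400 (4.61%) passed, 238 higher (2.75%) and 162 lower (1.87%). Without the library term 60 passed, among them Fabp5, Tcerg1l, Lrat, Il2rg, Cilp, Bst1, Ncam1, Gfra2, Bmp3 and Cxcl9 but not Ch25h, Clu, Mfge8, Cxcl13, Cxcl12, Dcn, Saa3, Inmt, Fst, Rgs16, Scn7a, Cxadr, Slit3, Cd200, Coch, Col3a1, Myh11, Pdlim3, Dll1, Id1, Chrdl1 or Ltb. Without 2-IC replicate 1 or 2-IC replicate 2 the counts were 194 and 155, and with no filter on low counts 632 passed, of which 240 were higher. Among genes with a mean of 50 CPM or more in the higher gate and 1 direction in every library, the largest rise was in the fatty acid-binding protein gene Fabp5, at 73.0, 27.5 and 111 CPM against 3.57, 1.29 and 4.68 CPM (log2 fold change 4.32 ± 0.48 SE, adjusted p = 5.63e-06). Fabp5 was higher still in the Cr2 gate, at 519, 235 and 707 CPM (Madcam1 against Cr2 gate, log2 fold change -2.95 ± 0.25 SE, adjusted p = 8.30e-08). Tcerg1l was at 63.5, 90.5 and 37.1 CPM against 4.76, 1.73 and 4.68 CPM (log2 fold change 4.27 ± 0.42 SE, adjusted p = 1.24e-06). Neither gene overlapped between the Madcam1 and Tnfsf11 gates. Lrat, which encodes the enzyme that esterifies retinol, Il2rg, the common cytokine receptor γ chain gene, Cilp, Adam33 and Colq rose by 4.06, 3.90, 3.57, 3.48 and 2.99 on the log2 scale. Serpina1e rose by 4.08 on that scale, and since the Serpina1 genes are near-identical copies its reads may be split between them.

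Of 15 tested FDC genes, 9 were higher and 2 lower than in the Tnfsf11 gate, with a median of 1.46 against -0.00 over all genes. The shares over all genes tested were 2.75% higher and 1.87% lower. Without 2-IC replicate 1, 6 of the 9 higher calls stayed, without 2-IC replicate 1 or 2 both lower ones were lost, and without the library term 2 higher ones stayed. Clu was at 12923, 13739.8 and 19784 CPM against 5317, 4435 and 6600.0 CPM (log2 fold change 1.48 ± 0.14 SE, adjusted p = 1.24e-06), and Mfge8 at 10944, 7696 and 9526 CPM against 4767, 2469.9 and 4264 CPM (log2 fold change 1.30 ± 0.13 SE, adjusted p = 1.88e-06). Both genes were higher in each library of the Madcam1 gate than in any of the Tnfsf11 gate. Gfra2, a GDNF family receptor gene, rose by 1.46 and Cilp was at 165, 86.6 and 222 CPM against 12.7, 8.63 and 18.7 CPM. Cd200 and Coch also rose, by 2.05 and 2.04 on the log2 scale, but without 2-IC replicate 1 their adjusted p was 0.565 and 0.478. The highest Coch counts, 11 and 9 UMIs, lay in single members of that library that carried 0 of the other MRC markers. Cxcl13 was at 23629, 15066 and 25817 CPM against 10181, 4769 and 12581 CPM (log2 fold change 1.29 ± 0.16 SE, adjusted p = 2.32e-05), without overlap.

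Among the largest falls against the Tnfsf11 gate under these limits, the acute phase gene Saa3 went from 379, 18.6 and 184 CPM to 34.9, 0 and 0 CPM (log2 fold change -3.77 ± 0.71 SE, adjusted p = 0.00192). The groups overlapped, since 2-IC replicate 2 of the Tnfsf11 gate was below 2-IC replicate 1 of the Madcam1 gate. Inmt, a methyltransferase gene, fell by 3.24 on the log2 scale. Fst, the gene of the activin antagonist follistatin, fell by 3.39 on the log2 scale, with an adjusted p of 0.256 without 2-IC replicate 2. Rgs16, Scn7a, Cxadr and Slit3 were also lower, and without 2-IC replicate 2 their adjusted p was 0.0695, 0.195, 0.0732 and 0.0798. Cxcl12, a chemokine gene of reticular cells, was at 3769, 2349 and 2029 CPM against 6890.3, 6859 and 5487 CPM (log2 fold change -1.31 ± 0.20 SE, adjusted p = 2.20e-04). The highest library of the Madcam1 gate lay below the lowest of the Tnfsf11 gate. Cxcl9 was at 31.7, 15.7 and 92.7 CPM against 148, 234 and 360.0 CPM (log2 fold change -2.61 ± 0.33 SE, adjusted p = 2.34e-05). Thinned to 2000 UMIs, the calls of Cxcl9, Fst, Id1, Chrdl1, Myh11 and Pdlim3 against the Tnfsf11 gate were lost, and those of Clu, Mfge8, Cxcl13, Cxcl12, Dcn, Saa3, Bst1, Ncam1 and Fabp5 stayed.

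Of 33 tested matrix genes, 8 were lower and 1 higher than in the Tnfsf11 gate (median -0.65). Among all genes tested in this comparison, 1.87% were lower and 2.75% higher. Without 2-IC replicate 2, 1 of the 8 lower calls stayed, that of decorin, without 2-IC replicate 1 there were 5 left, and without the library term 0. The proteoglycan gene decorin (Dcn) was at 3687, 4434 and 1464 CPM against 7923, 9891 and 6289.9 CPM (log2 fold change -1.44 ± 0.23 SE, adjusted p = 4.68e-04), without overlap. Col3a1 fell by 1.16 on the log2 scale, with an adjusted p of 0.0593 without 2-IC replicate 2. Of 14 tested contractile genes, the smooth muscle myosin gene Myh11 and Pdlim3 rose by 1.18 and 1.82 on the log2 scale, where 2.75% of all genes tested were higher. Against the Cr2 gate 5 contractile genes were higher and 2 lower, where 1.67% and 2.96% of all genes tested were. None of the 5 higher calls stayed without 2-IC replicate 2 or the library term, and without 1-IC replicate 1 a single one did. Pdlim3 was among the lower ones (log2 fold change -1.28). Its call was lost without the library term, without the contaminant filter and when thinned to 2000 UMIs. Of 26 tested genes of the BMP, WNT and Notch pathways, Dll1, Bmp3 and Id1 were higher and Fst and Chrdl1 lower, with Bmp3 at 63.5, 74.8 and 74.1 CPM against 26.2, 22.9 and 20.3 CPM (log2 fold change 1.51 ± 0.27 SE, adjusted p = 0.0013). The call of Bmp3 was lost without the contaminant filter. For Dll1 the adjusted p was 0.25 without 2-IC replicate 1 and 0.0998 without 2-IC replicate 2, for Id1, whose call was also lost with DESeq2, 0.166 without 2-IC replicate 1 and 0.3 without 1-IC replicate 1 and for Chrdl1 0.136 without 2-IC replicate 1. Ltb, which encodes the membrane anchor of lymphotoxin, was at 44.4, 19.7 and 46.3 CPM against 15.9, 3.88 and 12.5 CPM (log2 fold change 1.69 ± 0.38 SE, adjusted p = 0.00973), and its adjusted p was 0.2 without 2-IC replicate 1, 0.0802 without 2-IC replicate 2 and 0.0622 without 1-IC replicate 1.

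Compared with the remaining stroma, the Madcam1 gate was higher in Lrat, Wif1, Tcerg1l, the FDC genes Clu and Mfge8, Notch ligands and Cxcl13, and lower in matrix genes, immediate early genes and several chemokines. Of 8668 genes tested, 790 (9.11%) passed, 367 higher (4.23%) and 423 lower (4.88%). Without the library term 171 passed, and the genes named below that did not include Atf3, Ccl11, Cst3, Ctss, Dcn, Ebf1, F3, Fos, Fst, H2-Aa, Hspa1b, Hspb1, Ighm, Igkc, Kcnq1ot1, Kitl, Lum, Saa3 and tenascin C. Without 2-IC replicate 1 the count was 326. Lrat was at 53.9, 66.9 and 64.9 CPM against 1.07, 0.746 and 5.26 CPM (log2 fold change 5.18 ± 0.55 SE, adjusted p = 9.42e-07). Mansc4 was at 69.8, 98.4 and 139 CPM against 4.51, 2.98 and 8.41 CPM (log2 fold change 4.16 ± 0.32 SE, adjusted p = 6.84e-09). For both genes every library of the Madcam1 gate was above every library of the remaining stroma. Wif1, Tcerg1l, Il2rg, Draxin (an axon guidance and Wnt-antagonist gene), Meox1 and Serpina1e rose by 5.01, 4.89, 3.82, 3.65, 3.42 and 3.41 on the log2 scale. Thinned to 2000 UMIs, the calls lost against the remaining stroma included those of Draxin, Fst, Kitl, Ctss, Cst3 and Kcnq1ot1.

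Of 26 tested genes of the BMP, WNT and Notch pathways, 8 were higher and 3 lower than in the remaining stroma (median 0.28). Among all genes tested, 4.23% were higher and 4.88% lower. The lower calls, those of Fst, Chrdl1 and Hes1, were lost without the library term. Without 2-IC replicate 2, 4 of the 8 higher calls stayed, and without 2-IC replicate 1 there were 5 left and 1 of the lower ones. The Notch ligand genes Dll1 and Dll4 were at 28.6, 43.3 and 18.5 CPM and 47.6, 78.7 and 74.1 CPM in the members. In the remaining stroma they were at 2.79, 2.24 and 0 CPM and 16.7, 7.46 and 9.46 CPM, and both passed the test, with adjusted p of 3.45e-04 and 0.0012. Neither ligand overlapped between the gates. Rspo3, a Wnt pathway agonist gene, was at 206, 146 and 167 CPM against 41.4, 48.1 and 51.5 CPM (log2 fold change 1.83 ± 0.22 SE, adjusted p = 5.61e-06). Id1, a target of BMP signalling, was at 362, 94.4 and 556 CPM against 112, 29.5 and 46.2 CPM (log2 fold change 2.07 ± 0.27 SE, adjusted p = 1.95e-05). Its 2-IC replicate 2 value lay below the highest library of the remaining stroma.

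Of 15 tested FDC genes, 11 were higher and 1, C4b, was lower than in the remaining stroma (median 1.33). For this list and the chemokines below, the shares over all genes tested were 4.23% higher and 4.88% lower. Of the 11 higher calls, 6 stayed without 2-IC replicate 1, and those of Fcer2a, Cd200, Coch and Prnp were among the ones lost. Without the library term 6 stayed as well. Clu rose 3.21-fold (log2 fold change 1.68 ± 0.14 SE, adjusted p = 5.31e-08) and Mfge8 3.45-fold (log2 fold change 1.79 ± 0.13 SE, adjusted p = 6.84e-09). Cxcl13 was at 3851, 2398 and 7726 CPM in the remaining stroma, 4.68-fold below the Madcam1 gate (log2 fold change 2.23 ± 0.17 SE, adjusted p = 6.84e-09). All 3 genes were without overlap. Of 20 tested chemokine and cytokine genes, Cxcl13 and Kitl were higher and 9 were lower, and for Kitl the adjusted p was 0.251 without 2-IC replicate 1, 0.0649 without 2-IC replicate 2 and 0.081 without 1-IC replicate 1. Of the 9 lower calls, 3 stayed without the library term. The eotaxin gene Ccl11 was at 124, 129.8 and 0 CPM against 505, 510.2 and 420.4 CPM (log2 fold change -2.50 ± 0.39 SE, adjusted p = 1.32e-04), and Cxcl12 fell by 1.66 on the log2 scale. Il7, the gene of a T cell survival cytokine, was at 41.2, 55.1 and 18.5 CPM against 109, 111 and 96.7 CPM (log2 fold change -1.45 ± 0.26 SE, adjusted p = 6.57e-04). All 3 were lower in every library of the Madcam1 gate.

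Matrix genes had 21 lower and 1 higher of 33 tested against the remaining stroma, with a median of -0.91 against -0.00 over all genes. The shares over all genes tested were 4.88% lower and 4.23% higher. Of the 21 lower calls, 12 stayed without 2-IC replicate 1, without 2-IC replicate 2 there were 14 left, and without the library term 1. Dcn was at 10401, 8947 and 8689 CPM in the remaining stroma (log2 fold change -1.81 ± 0.24 SE, adjusted p = 1.81e-05), and lumican (Lum) fell by 2.26 on the log2 scale. Emp1, Matn2, Fgf7, Fbln1 and F3, which encodes tissue factor, were among the largest falls under the limits above, with log2 fold changes of -4.07, -3.83, -3.72, -3.67 and -3.49. Saa3 and Fst, with the latter at 12.7, 3.93 and 0 CPM against 44.9, 189 and 53.6 CPM, were lower as well. The 1 higher matrix gene was Tnc, which encodes tenascin C, and its adjusted p was 0.63 without 2-IC replicate 1. The calls of Emp1 and Hspa1b were lost without the contaminant filter.

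The immediate early genes, which are also induced by tissue dissociation, had 17 lower and, with heat shock genes, 2 higher of 24 tested (median -0.94). Among all genes tested against the remaining stroma, 4.88% were lower and 4.23% higher. Of the 17 lower calls, 11 stayed without 2-IC replicate 1, and without the library term 0. Fos was at 4886, 3514 and 2141 CPM in the Madcam1 gate against 7771, 5539 and 8092 CPM in the remaining stroma (log2 fold change -1.17 ± 0.19 SE, adjusted p = 2.33e-04). Atf3 was at 593, 393 and 55.6 CPM against 1007, 642 and 1329.5 CPM (log2 fold change -1.47 ± 0.31 SE, adjusted p = 0.00266), a call lost with DESeq2. The Madcam1 gate was lower in each library, and the 1-IC library was the lowest. The 2 rises were the heat shock genes Hspa1b and Hspb1, at 1.06 and 1.28 on the log2 scale. For Hspa1b the adjusted p was 0.0721 without 2-IC replicate 1 and 0.0851 without 2-IC replicate 2, and for Hspb1 it was 0.216 without 2-IC replicate 1. Against the Cr2 gate the same list had 1 higher and 1 lower, with a median of 0.06. Among all genes tested 1.67% and 2.96% were, so nothing is read from that count. Against the Tnfsf11 gate the list had 2 higher and 6 lower, with a median of -0.35, where 2.75% and 1.87% of all genes tested were. Of the 6 lower calls, 1 stayed without 2-IC replicate 1, 3 without 2-IC replicate 2 and 0 without the library term. The part of dissociation in these values was not tested.

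**Figure D5:**
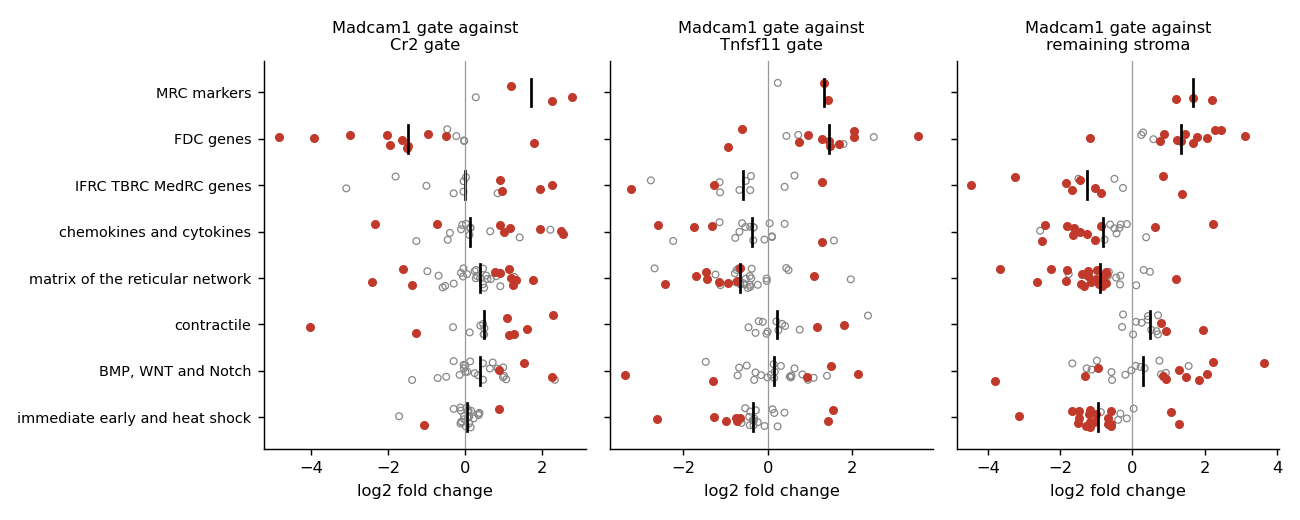
Log2 fold changes (x axis) of the tested genes of 8 lists (y axis; IFRC, TBRC and MedRC are interfollicular, T-B border and medullary reticular cells) in the 3 comparisons of the Madcam1 gate, which share that gate. Red points passed the threshold, open points did not, and bars are list medians, with matrix genes at -0.91 against the remaining stroma.

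Within the Madcam1 gate, 52 members carried Tnfsf11 and 31 did not, and the first were deeper, with a median of 8436 UMIs against 4673. Enpp2 was at 6506, 5749 and 5145 CPM with Tnfsf11 and 3826, 1522 and 1981 CPM without it, where 2-IC replicate 2 had only 4 members without Tnfsf11. Bst1 was detected in 48 of the 52 members with Tnfsf11 and in 18 of the 31 without. Ncam1 was detected in 33 and 7 of them. The sum of these 4 members was left out, so that the comparison rests on the other 2 libraries. In a fit of 5 sums with 1 residual degree of freedom, 16 of 1964 genes (0.815%) passed, 2 higher with Tnfsf11 (0.102%) and 14 lower (0.713%). Mmp3 and fibronectin (Fn1) were higher, with log2 fold changes of 3.97 and 2.60. Ccl2, the T zone chemokine gene Ccl21a, Tagln and CR974586.5 fell, with log2 fold changes of -5.83, -3.91, -3.10 and -2.97. Ccl21a is 1 of several near-identical gene copies, between which reads may be split. Without 2-IC replicate 2 the edgeR test called 0 genes, with 105 at an unadjusted p under 0.05, without shared barcodes or the library term it called 1, and DESeq2 on all 5 sums called 2. Single members held 956 of the 3184 Ccl21a UMIs, 83 of the 107 Tagln UMIs of 1-IC replicate 1 and 144 of the 376 Fn1 UMIs.

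The 2 conditions could not be tested within the gate, since the 1-IC group has 1 library. Of the genes at 50 CPM or more in either library, 21.5% differed by 2-fold or more between the 2-IC libraries (816 of 3802). The share was 23.5% between 2-IC replicate 1 and 1-IC replicate 1 (919 of 3912) and 37.1% between 2-IC replicate 2 and 1-IC replicate 1 (1490 of 4013). 2-IC replicate 1 was thus about as far from the other 2-IC library as from the 1-IC library, and the sums rest on 50, 16 and 17 members. Across libraries Bst1 was at 570.4 ± 18.8 CPM (SD, n = 3 libraries) and Tnfsf11 at 422 ± 26.9 CPM, while Madcam1 ranged from 185 to 500.4 CPM and Ch25h from 83.4 to 121 CPM. The list of immediate early and heat shock genes summed to 27798, 24895 and 13918 CPM, lowest in the 1-IC library, with Klf2 at 460.1, 452 and 27.8 CPM, and this library also had the highest Malat1, at 50805, 67735 and 117937 CPM. Cxcl1, a neutrophil chemoattractant gene, was at 822, 606 and 18.5 CPM. With 1 library, a difference of the 1-IC group cannot be told apart from a difference of that library.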

How the data were processed

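The authors deposited 10x Genomics 3′ counts (UMI counts per gene and barcode) as 1 matrix per library. Reads had been mapped with Cell Ranger to GRCm38 with Ensembl 89 annotation, as version 3 in the methods and 5.0.0 in the matrix headers. The labels name kit chemistry version 3. Retained barcodes had at least 200 genes, at most 10% mt- UMIs and 0 counts of the leukocyte genes Cd79a, Cd79b, Cd3d, Trac and Ptprc, the endothelial genes Egfl7, Cldn5, Ly6c1 and Lyve1, and S100b, Krt18, Hba-a2 and Hba-a1. No doublet caller was run, since each gate was set by marker counts. UMIs were summed per library and gate (at least 5 barcodes) and fitted with edgeR 4.0.16 (quasi-likelihood, TMM, filterByExpr, library as a term) in R 4.3.3, with Benjamini-Hochberg adjustment over all genes tested and a threshold of 0.05. The gate genes were removed before adjustment, Tnfsf11 where it set a gate. The fit of 4 gates had 12 sums and 6 residual degrees of freedom. Gates of a library share 1 suspension, and the library term takes out the spread between libraries. The p-values thus measure how far the differences between gates vary across the 3 libraries.

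The genes named were those of the gates and marker list, the 8 largest rises and falls past the threshold with 1 direction in every library and a mean of 50 CPM or more in the higher gate (4 for the comparison by Tnfsf11), and, of each list, the 3 most abundant members and those past the threshold. Results of some of these genes are not reported here. Glycam1, Kdr, Pecam1 and other marker genes of other cells were named after their values were seen. The members, the rule and the lists were chosen with earlier results of these data known. DESeq2 1.42.0 and other alternatives are given in the closing section. The descriptions of the 2-IC samples disagreed with each other on the days of injection. The groups follow the condition named in the titles and not the tags at their ends.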

Additional observations from a re-analysis of the deposited data

Results flagged for a closer look

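In 11 cases the log2 ratio of the Madcam1 gate had 1 sign in both 2-IC libraries and the other in the 1-IC library, and these differences were not tested, since the 1-IC group has 1 library. Against the Cr2 gate, Jund was at -0.42 in the 1-IC library and at 0.15 and 0.54 in the 2-IC libraries and Malat1 was at 0.14 in the 1-IC library and at -0.21 and -0.57 in the 2-IC libraries. Against the Tnfsf11 gate, Ccl19 was at 0.32 in the 1-IC library and at -0.34 and -1.21 in the 2-IC libraries, Cd74 was at -0.37 in the 1-IC library and at 0.42 and 0.42 in the 2-IC libraries, Abcc9 was at -0.46 in the 1-IC library and at 0.22 and 0.20 in the 2-IC libraries and Neat1 was at -0.60 in the 1-IC library and at 0.76 and 0.59 in the 2-IC libraries. Against the remaining stroma, Grem1 was at -0.092 in the 1-IC library and at 0.44 and 1.58 in the 2-IC libraries, Nfkbia was at 0.019 in the 1-IC library and at -0.13 and -0.31 in the 2-IC libraries, Tnfaip3 was at -0.095 in the 1-IC library and at 0.60 and 0.87 in the 2-IC libraries, Cd74 was at -0.72 in the 1-IC library and at 0.49 and 0.41 in the 2-IC libraries and Neat1 was at -0.67 in the 1-IC library and at 0.50 and 0.31 in the 2-IC libraries. Malat1 and Neat1 are nuclear RNAs, Jund, Nfkbia and Tnfaip3 belong to stress and NF-κB responses, and Cd74 is abundant in B cells.

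Outside the comparisons, 74 barcodes had Madcam1 without Cr2 but were removed because of a contaminant gene, 3.26% of the 2270 removed, with 54, 10 and 10 in the 3 libraries. Of these, 34 carried Cd79a, 28 Ptprc, 26 Cd79b, 20 Egfl7, 19 Lyve1 and 16 Cldn5. What these barcodes are was not tested.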

How the results depend on the processing

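The counts of 402, 400, 790 and 16 calls (against the Cr2 gate, the Tnfsf11 gate, the remaining stroma, and by Tnfsf11) kept within 1.5 times under relative log expression size factors, DESeq2 and the omission of very deep barcodes in the first 3 comparisons, with 377, 408 and 711 calls by DESeq2. Without the library as a replicate block the calls were 92, 60, 171 and 1. Among calls, 59.5% were higher against the Tnfsf11 gate, but 95% without the block, 38% with no filter on low counts and 44.8% with at least 2 Madcam1 UMIs. Against the remaining stroma 46.5% were higher, but 76.0% without the block and 31.6% with no filter. Against the Cr2 gate 36.1% were higher, but 18.5% without the block, 26% at 2 or more Madcam1 UMIs and 50% against Madcam1-positive barcodes of the Cr2 gate. Leaving out 1 library gave 197 to 280, 155 to 309 and 326 to 610 calls, and 0 by Tnfsf11 without 2-IC replicate 2. Thinning to 2000 UMIs, which rebuilds the gates and leaves 3 members in 2-IC replicate 2, gave 45, 155 and 289. At 2 or more Madcam1 UMIs 262 genes were called against the Cr2 gate. Without the contaminant filter the counts rose to 1622, 917, 1622 and 234. That setting lets B cell barcodes into the gates, and those with Cr2 into the Cr2 gate. Added after seeing the data, the Cr2 gate limited to Madcam1-positive barcodes gave 858 calls, and leaving out barcodes found in more than 1 library gave 419, 336, 728 and 1. With no filter on low counts the Tnfsf11 gate comparison had 632 calls. By Tnfsf11 there were 35 calls with relative log expression size factors, 2 with DESeq2 and 28 with no filter, and thinning, the 2-UMI gate and the omission of 2-IC replicate 1 or 1-IC replicate 1 could not be fitted.

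The gate's share in 2-IC replicate 1 moved from 3.28% to 2.30% thinned and 1.57% at 2 UMIs, and in 2-IC replicate 2 from 4.09% to 0.867% and 1.79%. At a minimum of 200 CPM the shares of genes 2-fold apart were 16.8%, 13.9% and 31.5%, and thinned 43.3% between 2-IC replicate 1 and 1-IC replicate 1.

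Of 4435 alternative values of 384 named gene and comparison pairs, 3649 kept the call or stayed without one, 654 lost the call, 99 gained it and 33 reversed. For pairs called neither in the main fit nor in the alternative, the direction was not compared. Thinned, the log2 fold changes that reversed were Ccl2 -6.66, Coch 0.70, Vtn -0.24 and H2-Aa 0.53 against the Cr2 gate, Postn 0.22 against the Tnfsf11 gate and Hamp2 -0.85, Grem1 -0.21, Col5a1 0.20, Postn 0.19, Id3 -0.82 and H2-Aa 0.21 against the remaining stroma. At 2 or more Madcam1 UMIs, the log2 fold changes that reversed were Ccl2 -0.19 and Il6 -5.05 against the Cr2 gate and Hamp2 -0.10 against the remaining stroma. Without the contaminant filter, the log2 fold changes that reversed were Coch 0.40, Mfge8 0.042, Itgb1 0.59, Vtn -0.26, Postn 0.25, Dnajb1 -0.040, Flt4 1.65 and Ebf1 -1.0 against the Cr2 gate, Fcer2a -1.38, Ltb -0.33, Nid1 0.28, Ighm 0.46 and Ctss -0.12 against the remaining stroma and Bgn 0.79 and Cd74 -1.28 by Tnfsf11. With the Cr2 gate limited to Madcam1-positive barcodes, the log2 fold changes that reversed were Cxcl12 2.11, Fbln1 1.97, Dcn 1.32 and Fos 0.68 against the Cr2 gate. The cause was not tested. Precision is limited by 83 members, of which 16 and 17 came from 2 of the libraries, by a gate that rests on a single UMI in 39 of them, and by a Cr2 count of 0 that at this depth does not exclude Cr2 RNA. Counting intervals leave out the variation between mice.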

Other observations

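Of 14 genes of interfollicular, T-B border and medullary reticular cells, 12 were tested. Against the Cr2 gate 4 were higher (median -0.0054), where 1.67% of all genes tested were. Of these 4, 2 stayed without 1-IC replicate 1 and 1 without the library term. Against the Tnfsf11 gate 1 was higher and 2 lower (median -0.60), where 2.75% and 1.87% of all genes tested were. The lower calls, Inmt and Nr4a1, were lost without the library term. Against the remaining stroma 2 were higher and 7 lower (median -1.25, against -0.00 over all genes). In that comparison 4.23% of all genes tested were higher and 4.88% lower. Of the 7 lower calls, 5 stayed without 2-IC replicate 1 and 2, Inmt and Il7, without the library term. The T zone chemokine gene Ccl19 was at 1107, 665 and 2595 CPM in the Madcam1 gate, 725, 499 and 676 CPM in the Cr2 gate and 2152, 1571 and 2861 CPM in the remaining stroma. Ltbp1, which encodes a binding protein of latent TGF-β, was higher than in all 3 gates, at 181, 153 and 241 CPM against 93.5, 86.3 and 80.9 CPM in the Cr2 gate (log2 fold change 0.96 ± 0.20 SE, adjusted p = 0.00369). Its adjusted p against the Cr2 gate was 0.0712 without 2-IC replicate 1 and 0.0667 without 1-IC replicate 1, and the call was lost without the library term.

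Of 21 tested interferon response genes, those that passed were 1, 2 and 5 lower ones against the Cr2 gate, the Tnfsf11 gate and the remaining stroma, where 2.96%, 1.87% and 4.88% of all genes tested were lower. Of the 5 calls against the remaining stroma, 2 stayed without 2-IC replicate 2 and 1 without the library term. Cxcl9 was among the calls in all 3, but its call against the Cr2 gate was lost without the library term and those against the other gates when thinned to 2000 UMIs. Of 18 tested adhesion and surface genes, 4 were higher and 1 lower than in the Cr2 gate, and 2 higher and 3 lower than in each of the other gates. Over all genes tested, 1.67% were higher and 2.96% lower than in the Cr2 gate, 2.75% and 1.87% than in the Tnfsf11 gate and 4.23% and 4.88% than in the remaining stroma. Of the 4 higher calls, 2 stayed without 2-IC replicate 1 and 1, Pdgfrb, without the library term, and without 2-IC replicate 2 the 3 lower calls against the Tnfsf11 gate were lost. Vcam1 was at 1288, 1074 and 1473 CPM in the Madcam1 gate and 1628, 1299.9 and 1896 CPM in the Cr2 gate (log2 fold change -0.44 ± 0.15 SE, adjusted p = 0.135). Of 5 tested nuclear RNAs, 1, Kcnq1ot1, was higher than in the remaining stroma, with adjusted p of 0.136 without 2-IC replicate 1 and 0.265 without 1-IC replicate 1, and the call was lost with DESeq2 and without the library term.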
